A study of Arabidopsis thaliana with 17 samples.

Results

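Gene expression was compared between brca2a triple and double mutants of Arabidopsis thaliana that had both received salicylic acid (SA). The comparison rests on 6 of the 17 arrays of the series, 3 of the brca2a triple and 3 of the double, and these were chosen by their titles alone. The brca2a triple carried the npr1, sni1 and brca2a mutations, and the double carried npr1 and sni1. Plants of both genotypes were 3 weeks old, grew in soil and were exposed to 0.5 mM SA for 16 hours, and their tissue was labelled seedling. Each replicate came from an independent biological experiment, per the series design. Arrays of the same 2 genotypes in water, 3 of each, are given beside the SA arrays as levels, and they enter 1 test of the difference between the treatments. All of these plants carried npr1 and sni1, so every difference given here was measured in that background and no wild type stands beside it. The labels used here give neither the alleles nor the number of plants behind an array.

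SA is a hormone that plants make on infection, and it switches on a large set of defence genes. NPR1 is the co-activator through which most of that response runs, and SNI1 is a negative regulator of it, so that loss of SNI1 restores part of the response to plants without NPR1. BRCA2A is an orthologue of the human breast cancer susceptibility protein BRCA2, which takes part in homologous recombination. In Arabidopsis, BRCA2 has also been linked to the transcription of defence genes. Plants that carry npr1, sni1 and brca2a, set against plants that carry npr1 and sni1, show which transcripts differ when BRCA2A is mutated as well.

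The arrays were Affymetrix ATH1 arrays, which measure each transcript with a probe set, and the deposited values were linear intensities made with PLIER. All differences below are of log2(intensity + 16), the brca2a triple minus the double, which understates changes of dim probe sets, and they are given with the standard error of the limma fit. A gene is said to be lower or higher, without further remark, where its adjusted p (limma, Benjamini-Hochberg over 22746 probe sets) was under 0.05. Of the probe sets, 13436 named 1 locus each, which gave 13286 named loci. Another 8730 probe sets were not listed in the platform table used here, and these carry no gene name here. A gene is called measured below where a one-gene probe set in that table named it. Genes not counted as measured may still have a probe set among those not listed, so list and family counts cover only the named part. BRCA2A, NPR1, SNI1 and BRCA2B had no one-gene probe set in that table and were not analysed here, so the arrays did not check the mutations.

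Median intensity lay between 59.9 and 61.9 on the brca2a triple arrays and between 60.1 and 61.6 on the double arrays after SA. Arrays of the double correlated with each other at Pearson r of 0.9973 to 0.9981 over all probe sets, and arrays of opposite genotype at 0.9868 to 0.9891. In the brca2a triple, replicates 1 and 3 correlated at 0.998, while replicate 2 correlated with them at 0.9941 and 0.9943. UGT76E12, a glycosyltransferase gene, shows how far that array could lie from the others, with 8.98, 134 and 9.42 intensity units in replicates 1 to 3 of the brca2a triple. Among the water arrays, replicate 2 of the double stood further apart, at 0.9814 and 0.9803 against 0.9974 between its 2 companions. Results are therefore also given without one or the other of these arrays. Nuclear photosystem genes such as PSBW, PSAE-1, PSBY and LHCB4.1 had mean intensities of 4248 to 9005 in the brca2a triple and 4299 to 8355 in the double, so green tissue was on the arrays. The root markers PYK10 and EXPA7 had mean intensities of 625 and 25.4 in the brca2a triple and 636 and 23.1 in the double. The leaf and flower markers chosen for the check were not analysed here. Ratios of the 3' to the 5' control probe sets differed between the genotypes by -0.145 for GAPDH, 0.00762 for actin and 0.0786 for ubiquitin (log2). The part of RNA quality in the results was not tested.

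After SA, the brca2a triple differed from the double at 2040 of 22746 probe sets, or 8.97%, of which 1073 were lower and 967 higher. The 2 directions were close in number but not in size. Among probe sets that differed at least 2-fold, 225 were lower and 44 higher, among those that differed at least 4-fold 47 were lower and 3 higher, and 7 were lower and none higher by 8-fold or more. The median difference of the lower probe sets was -0.505 and that of the higher ones 0.319, where the median over all probe sets was 0.0118. Of the named loci, 542 were lower (4.08%) and 451 higher (3.39%), with 89 and 12 of them at least 2-fold. All 89 and all 12 also passed without brca2a triple replicate 2. In whole-plant RNA, fewer cells of a type and less RNA per cell cannot be told apart.

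Without brca2a triple SA replicate 2 the number of probe sets past the threshold was 2082, and without the other arrays, 1 at a time, it lay between 1336 and 1485. When all 12 arrays shared 1 estimate of the spread, it was 970, of which 938 were among the 2040 in the same direction. The share that was higher was then 32.8%, against 47.4% with the 6 arrays alone. That fit leaves each difference after SA unchanged and takes its spread from the water arrays too, double water replicate 2 among them. It was not repeated without that array, so the part of that array in lost calls was not tested.

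**Figure D1:**
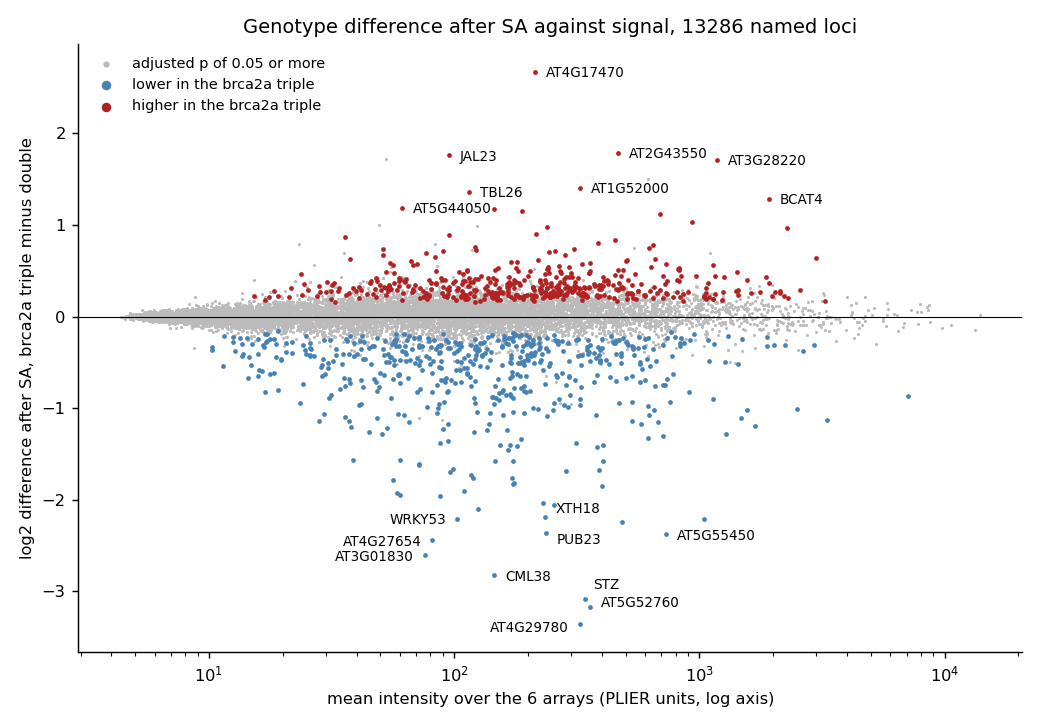
Difference between brca2a triple and double after SA (log2, y axis) against mean intensity over the 6 arrays (log x axis) for the 13286 named loci. Blue points are lower and red points higher in the brca2a triple at an adjusted p under 0.05, and grey points did not pass. The blue points reach below -3, while 1 red point, AT4G17470, lies above 2.

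Genes for transcription factors, calcium sensors and ubiquitin ligases were among the 12 named loci with the lowest differences, which were -3.36 to -2.19. STZ encodes a C2H2 zinc finger repressor that many stresses induce. Its intensity was 51.1, 63.5 and 63.1 in the brca2a triple and 650, 602 and 611 in the double after SA. Every triple array thus lay about an order of magnitude below every double array, and the difference was -3.09 ± 0.07 (adjusted p = 2.4e-06). WRKY53 encodes a transcription factor of defence and leaf senescence. It had 26.1, 23.6 and 29.5 in the brca2a triple and 172, 200 and 168 in the double, with no overlap (-2.21 ± 0.08, adjusted p = 7.3e-06). WRKY22, a transcription factor gene of responses to bacterial flagellin, had 59.5, 52.6 and 49.1 in the brca2a triple against 127, 116 and 115 in the double (-0.96 ± 0.07, adjusted p = 0.00014). Of the 7 measured WRKY genes these 2 were lower, beside 4.08% of all named loci. ZAP1, another member, was higher by 0.22 ± 0.05 (adjusted p = 0.029), a call that ended in 10 of 15 other settings, with adjusted p up to 0.14. The remaining WRKY genes, WRKY6, WRKY47, WRKY42 and WRKY20, had differences of -0.05, 0.00, 0.01 and 0.08.

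ORA47 encodes an AP2/ERF transcription factor that activates jasmonate synthesis genes. It had 26.7, 25.9 and 26.5 intensity units in the brca2a triple and 140, 176 and 132 in the double, and its difference was -1.96 ± 0.09 (adjusted p = 2.6e-05). BZIP60, which encodes a transcription factor of the unfolded protein response, had 325, 311 and 313 in the brca2a triple and 585, 671 and 619 in the double (-0.95 ± 0.06, adjusted p = 7.2e-05). The triple arrays of both genes lay within a narrow band below all double arrays.

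CML38, a gene for a calmodulin-like calcium sensor, had 25.9, 20.1 and 25.6 in the brca2a triple and 236, 254 and 312 in the double. The 3 triple values were close to each other and far below the double (-2.82 ± 0.11, adjusted p = 1e-05). CML37, of the same family, was dim in both genotypes, with 6.01, 6.54 and 6.41 in the brca2a triple and 15, 17.4 and 16.7 in the double. Its difference of -0.54 ± 0.04 (adjusted p = 0.00034) is understated by the pseudocount, since the ratio of its mean intensities was 0.385. These 2 were the lower ones among 8 measured genes for calmodulin-like proteins, beside 4.08% of all named loci lower. The other members had differences between -0.51 (CML41, adjusted p = 0.46) and 0.01 (AT1G76640).

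Plant U-box (PUB) proteins are ubiquitin ligases, and PUB22 and PUB23 are known to dampen immune signalling in Arabidopsis. PUB23 had 77.0, 60.0 and 62.6 in the brca2a triple and 405, 394 and 423 in the double, a difference of -2.36 ± 0.08 (adjusted p = 7.1e-06). PUB22 had 31.5, 33.4 and 27.0 in the brca2a triple and 61.6, 76.7 and 60.4 in the double (-0.81 ± 0.09, adjusted p = 0.0015). PUB25 had 50.9, 35.6 and 44.5 against 76.4, 68.7 and 81.2 (-0.62 ± 0.10, adjusted p = 0.009), and its adjusted p was 0.33 with all 12 arrays in the fit. In each of these 3 genes the genotypes did not overlap, which held for all 2040 probe sets past the threshold and for 23.8% of all named loci. They were the members past the threshold among 9 measured PUB genes, with none higher, beside 4.08% of all named loci lower. PUB19 had 20.1, 77.6 and 31.4 in the brca2a triple and 99.5, 105 and 97.6 in the double (-1.10 ± 0.31, adjusted p = 0.076). Without brca2a triple replicate 2, its outlying value, the difference was -1.5 and the adjusted p 0.00029, and 4 PUB genes were then lower. RING1, a gene for a RING-type ubiquitin ligase of programmed cell death, had 343, 305 and 389 in the brca2a triple and 865, 948 and 856 in the double (-1.33 ± 0.09, adjusted p = 0.00011).

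**Figure D2:**
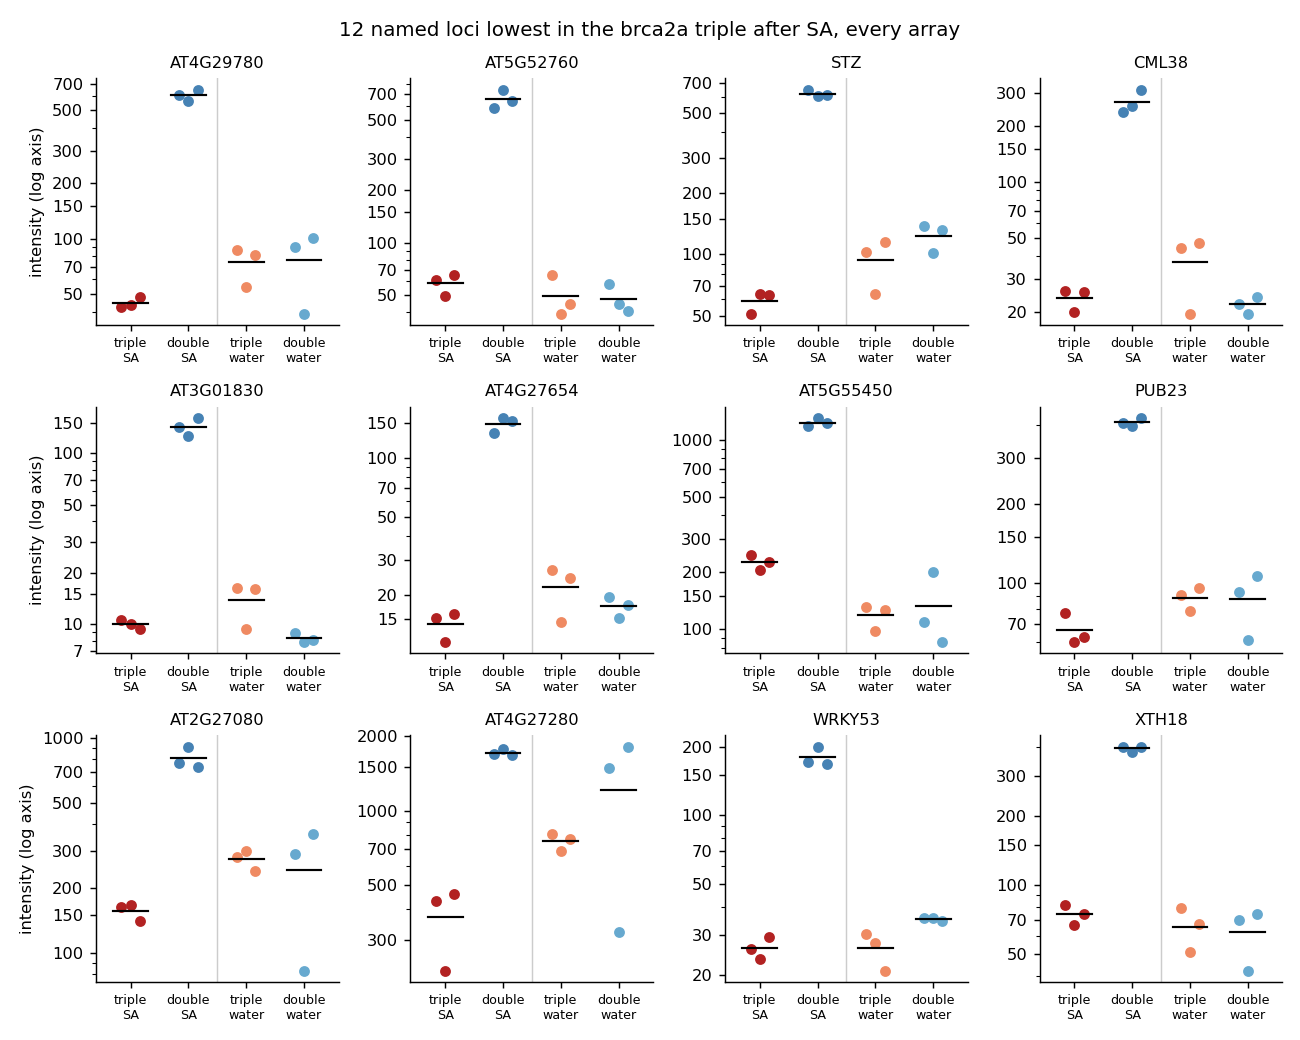
Intensity (log axes, which differ between panels) of the 12 named loci with the lowest differences, on every array. Points are arrays, with replicates 1 to 3 from left to right, and bars are group means; the groups are brca2a triple and double after SA and then in water. In every panel the 3 double SA arrays lie above the 3 triple SA arrays, as with STZ, where triple values are 51.1 to 63.5 and double values 602 to 650.

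Both measured genes of the SA response list, which holds 20, were lower, beside 4.08% of all named loci. Besides WRKY53 this was GRX480, an SA-induced glutaredoxin gene whose product binds TGA transcription factors, with 61.5, 62.9 and 76.2 in the brca2a triple and 253, 268 and 316 in the double. Its difference was -1.83 ± 0.10 (adjusted p = 4.1e-05). The other 4 measured glutaredoxin genes, GRXC1, ROXY2, ROXY1 and GRXC2, had differences between -0.09 and 0.11 and did not pass. SAG101, whose product partners the immune regulator EDS1, had 25.4, 27.3 and 25.5 in the brca2a triple and 40.6, 42.3 and 37.5 in the double (-0.42 ± 0.05, adjusted p = 0.002). Of the immune receptor and signalling list 2 genes were measured. The receptor gene EFR had a difference of 0.01 (adjusted p = 0.97), and the kinase gene BIK1 had -0.33 ± 0.10 (adjusted p = 0.089; -0.45 and 0.0019 without brca2a triple replicate 2).

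Genes for the endoplasmic reticulum (ER), where secreted defence proteins are folded, moved by less. ATERDJ3B, a gene for an ER co-chaperone, had 484, 449 and 460 in the brca2a triple and 709, 679 and 713 in the double (-0.58 ± 0.05, adjusted p = 0.00029). AT5G07340 of the same list had 114, 109 and 129 against 154, 158 and 149 (-0.36 ± 0.06, adjusted p = 0.014), and its adjusted p was 0.052 to 0.057 without any 1 of brca2a triple replicate 1 and double replicates 1 and 2. The calreticulin gene CRT1b had -0.14 ± 0.05 and did not pass (adjusted p = 0.15). So 2 of 3 measured members were lower, beside 4.08% of all named loci, with a list median of -0.355.

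Several genes for enzymes and cell surface proteins were lower too. XTH18 encodes an enzyme that cuts and rejoins cell wall xyloglucan, and it had 81.5, 67 and 74.6 in the brca2a triple and 402, 382 and 400 in the double (-2.19 ± 0.06, adjusted p = 5.3e-06). XTH19, its neighbour on chromosome 4, had 44.6, 48.7 and 44.8 against 90.5, 69.6 and 90.0 (-0.67 ± 0.09, adjusted p = 0.0037). The other 8 of 10 measured genes of this family had differences between -0.05 and 0.13 and did not pass. The lower ones made up 20% of the family, beside 4.08% of all named loci. TET8, a tetraspanin gene whose product marks extracellular vesicles, had 976, 1045 and 1015 in the brca2a triple and 2426, 2425 and 2182 in the double (-1.20 ± 0.06, adjusted p = 2.5e-05). CHI, annotated as a putative chitinase gene, had 42.4, 60.0 and 47.2 against 107, 131 and 122 (-1.05 ± 0.11, adjusted p = 0.0011). SRC2, a gene named after a cold-regulated soybean gene, had 1601, 1638 and 1735 in the brca2a triple and 3338, 3392 and 3312 in the double, a difference of -1.01 ± 0.05 (adjusted p = 2e-05). PPDK, the gene for pyruvate orthophosphate dikinase, and EXO, an extracellular protein gene of the brassinosteroid growth response, had -1.15 ± 0.14 and -1.11 ± 0.08. With all 12 arrays in the fit EXO did not pass (adjusted p = 0.51). The pectin methylesterase gene ATPMEPCRB had -0.85 ± 0.10 (adjusted p = 0.0018, and 0.097 with all 12 arrays). AR781 had -1.0 ± 0.14 (adjusted p = 0.004). Of 28 measured cytochrome P450 genes 1 was lower (3.57%, beside 4.08% of all named loci). This was CYP71B23, with -0.78 ± 0.12 (adjusted p = 0.0086, and 0.14 with all 12 arrays).

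The lowest named locus of all, AT4G29780, carries no symbol in the annotation used. It had 42.5, 43.3 and 48.0 in the brca2a triple and 607, 564 and 649 in the double, so that the lowest double array was above the highest triple array by an order of magnitude (-3.36 ± 0.06, adjusted p = 1.2e-06). AT5G52760 had 61.5, 49.5 and 65.0 against 584, 741 and 641 (-3.17 ± 0.11). AT3G01830 had 10.5, 10 and 9.36 in the brca2a triple and 141, 126 and 160 in the double (-2.60 ± 0.08), so that its triple arrays were among the dim probe sets. AT4G27654, AT5G55450 and AT2G27080 had -2.44, -2.38 and -2.25, each with an adjusted p of 1.5e-05 or lower. AT4G27280 differed from this pattern in its spread. It had 432, 227 and 462 in the brca2a triple and 1683, 1766 and 1677 in the double, with triple replicate 2 lowest, and its standard error was 0.24 (-2.21, adjusted p = 0.0014; -1.90 without that array).

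Several of these loci lie side by side. AT5G52750 and AT5G52760 are direct neighbours on chromosome 5, and AT5G52750 had 197, 144 and 159 in the brca2a triple and 660, 615 and 636 in the double (-1.85 ± 0.10). AT4G27652, next to AT4G27654, had 82.5, 47.4 and 68.1 against 239, 264 and 178 (-1.57 ± 0.19). AT1G72900, AT1G72920 and AT1G72940 form a row on chromosome 1 with differences of -1.58, -1.18 and -1.17. These were the 4 pairs of neighbours that both differed at least 2-fold, out of 8650 pairs of measured loci with at most 1 gene between them. In all, both loci were lower in 38 pairs, both higher in 19 and opposite in 20. Of 777 neighbours of a lower locus 9.78% were lower, beside 4.08% of all named loci, and of 651 neighbours of a higher locus 5.84% were higher, beside 3.39%.

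Loci near the mutated gene were looked at on their own, because a stretch of chromosome can travel with an introduced mutation. BRCA2A lies at the top of chromosome 4, with no measured named locus before it. Among the 50 measured loci after it 2 were lower, AT4G00700 (-1.10 ± 0.13) and AT4G00955 (-0.32 ± 0.06), and 2 were higher, GT72B1 (0.37 ± 0.04) and TBL26 (1.36 ± 0.18), which are neighbours. Over all named loci 4.08% were lower and 3.39% higher, so these counts were close to the overall shares. TBL26 is also one of the 12 highest loci of the whole comparison. The 5 nuclear chromosomes were alike in their share of lower loci, from 3.98% to 4.6%, and of higher loci, from 3.16% to 3.98%.

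The 12 named loci with the highest differences, 1.04 to 2.67, included genes of methionine-derived glucosinolate synthesis, cytokinin response, lectins and redox repair. Glucosinolates are sulfur-rich defence compounds of the cabbage family. BCAT4, the gene for the aminotransferase that starts methionine chain elongation for their synthesis, had 2589, 3063 and 2528 in the brca2a triple and 1252, 998 and 1079 in the double. The groups lay well apart, and the difference was 1.29 ± 0.10 (adjusted p = 3e-04). UGT74B1, a glucosyltransferase gene of the glucosinolate core structure, had 661, 561 and 634 against 378, 398 and 415 (0.62 ± 0.07, adjusted p = 0.0017), and AT2G31790 of the same list had 657, 597 and 585 against 385, 406 and 394 (0.61 ± 0.05, adjusted p = 0.00054). With all 12 arrays in the fit these 2 genes had adjusted p = 0.28 and 0.23. The transporters that load glucosinolates into the phloem went the other way. GTR1 had 338, 333 and 299 in the brca2a triple and 499, 423 and 470 in the double (-0.50 ± 0.07, adjusted p = 0.0065, and 0.50 with all 12 arrays), and GTR2 had -0.24 ± 0.06 (adjusted p = 0.042, lost in 11 of 15 settings with values up to 0.24). The list of core and transport genes was put together after values were seen. It held 3 higher and 2 lower genes among 5 measured, beside 3.39% and 4.08% of all named loci.

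Sulfate assimilation, which supplies the sulfur, had 2 higher genes among 3 measured, beside 3.39% of all named loci. This list was likewise put together after values were seen. APS3, an ATP sulfurylase gene, had 632, 505 and 625 in the brca2a triple and 335, 317 and 312 in the double (0.83 ± 0.09, adjusted p = 0.0013). The sulfite reductase gene SIR had 1467, 1200 and 1394 against 902, 949 and 878 (0.56 ± 0.08, adjusted p = 0.0047, and 0.057 with all 12 arrays). APS4 had a difference of -0.05 and did not pass (adjusted p = 0.53). GSTU20, a glutathione S-transferase gene, had 2978, 3302 and 2768 in the brca2a triple and 1512, 1552 and 1527 in the double (0.97 ± 0.07, adjusted p = 0.00014). GSTU16 had 0.29 ± 0.05 (adjusted p = 0.011, and 0.44 with all 12 arrays), and the other 12 of 14 measured glutathione S-transferase genes did not pass. The higher ones made up 14.3% of the family, beside 3.39% of all named loci.

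Both measured type-A response regulator genes, whose products are induced by cytokinin and dampen its signal, were higher, beside 3.39% of all named loci. ARR15 had 221, 226 and 180 in the brca2a triple and 83.4, 76.4 and 91.4 in the double (1.17 ± 0.09, adjusted p = 0.00029). RR16 had 68.7, 69.0 and 67.9 against 39.6, 47.8 and 47.1 (0.48 ± 0.06, adjusted p = 0.0029). Of 4 measured jacalin-related lectin genes, JAL23 had 149, 178 and 141 in the brca2a triple and 37.6, 31.7 and 34.5 in the double (1.76 ± 0.09, adjusted p = 2.9e-05). JAL34 had 406, 229 and 437 against 230, 248 and 278 and did not pass (0.43 ± 0.22, adjusted p = 0.32), while without brca2a triple replicate 2 it had 0.71 (adjusted p = 0.0026). MSRB5, which encodes a methionine sulfoxide reductase that repairs oxidised proteins, had 278, 217 and 307 in the brca2a triple and 94.7, 127 and 113 in the double (1.15 ± 0.14, adjusted p = 0.0023).

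**Figure D3:**
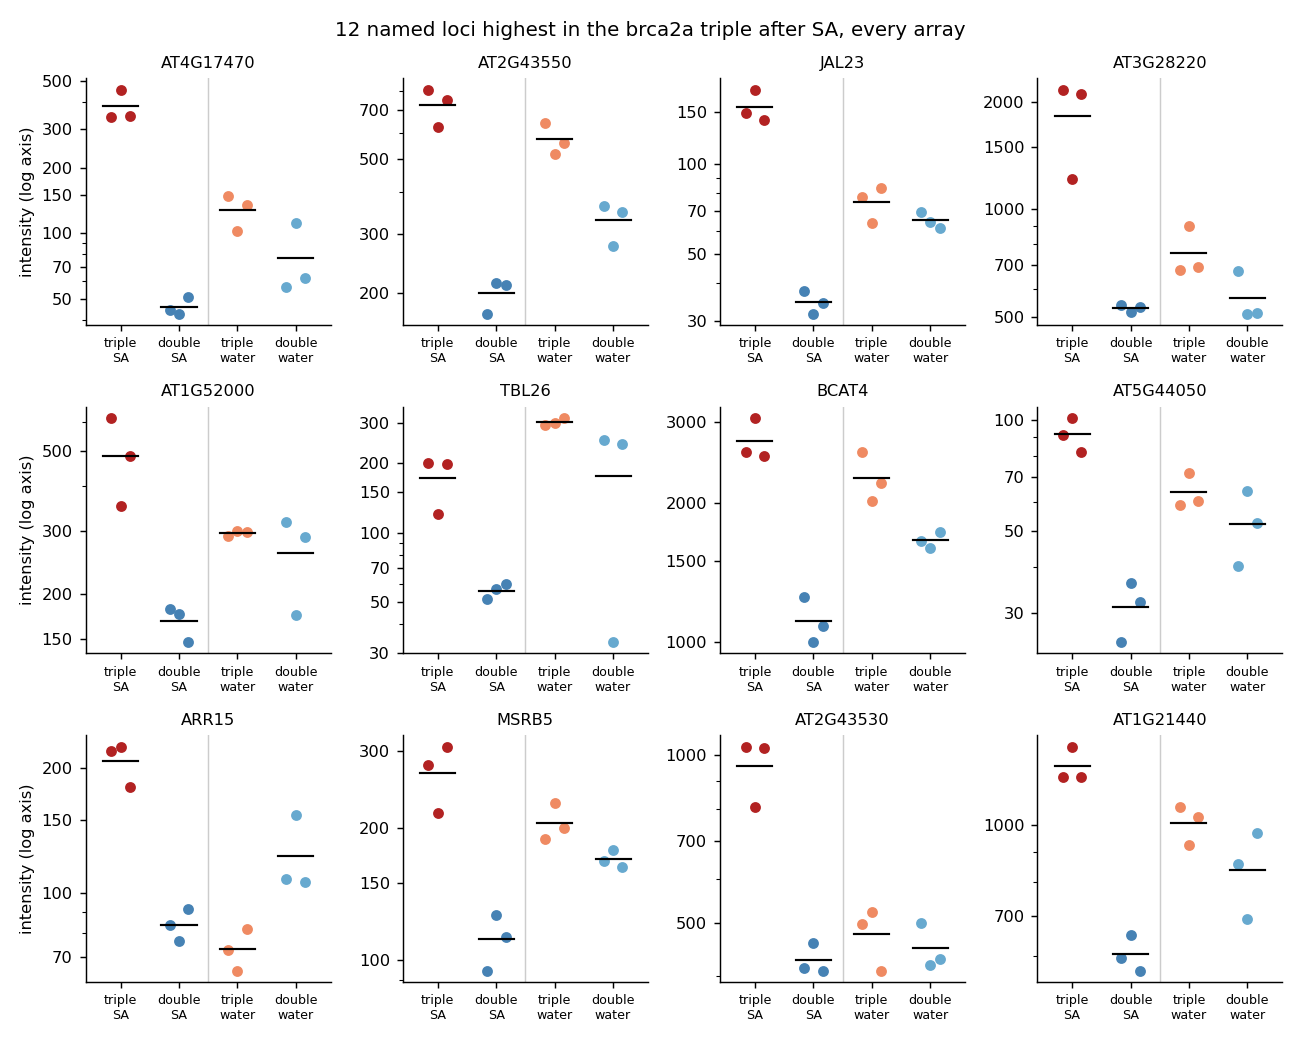
Intensity (log axes, which differ between panels) of the 12 named loci with the highest differences, on every array, with replicates 1 to 3 from left to right in each group and group means as bars. In every panel the 3 triple SA arrays lie above the 3 double SA arrays, as with JAL23, where triple values are 141 to 178 and double values 31.7 to 37.6. Triple SA replicate 2 is the lowest of its group for AT3G28220, AT1G52000 and TBL26.

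AT4G17470 was the highest named locus, with 343, 456 and 346 in the brca2a triple and 44.3, 42.7 and 50.8 in the double (2.67 ± 0.11, adjusted p = 1.5e-05). AT2G43550 had 808, 625 and 750 against 173, 214 and 211 (1.79 ± 0.11, adjusted p = 8.2e-05). AT3G28220 had 2166, 1215 and 2105 in the brca2a triple and 541, 516 and 532 in the double (1.71 ± 0.21, adjusted p = 0.0024). The double arrays of AT3G28220 were nearly level, while triple replicate 2 lay well below its companions, and without that array the difference was 1.98. AT1G52000 had 1.41 ± 0.19 (1.61 without that array), AT5G44050 1.19 ± 0.10, AT2G43530 1.13 ± 0.10 and AT1G21440 1.04 ± 0.07. TBL26, a gene of a family of cell wall acetyltransferases, had 201, 120 and 199 in the brca2a triple and 51.4, 56.7 and 59.8 in the double (1.36 ± 0.18, adjusted p = 0.0033). With all 12 arrays in the fit TBL26 did not pass (adjusted p = 0.24).

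UDP-glycosyltransferases attach sugars to hormones, flavonoids and other small molecules, and 9 of 51 measured genes of this family (17.6%) were higher and none lower, beside 3.39% higher and 4.08% lower among all named loci, with a family median of 0.0386. Besides UGT74B1, UGT76C2 had 227, 201 and 221 in the brca2a triple and 142, 136 and 168 in the double (0.50 ± 0.08, adjusted p = 0.0097). Its product inactivates cytokinins. UGT78D1, a flavonol glycosyltransferase gene, had 252, 234 and 213 against 170, 174 and 158 (0.44 ± 0.07, adjusted p = 0.008). The smallest differences past the threshold were those of UGT71C4 (0.23 ± 0.04), UGT78D2 (0.24 ± 0.04), a flavonoid glucosyltransferase gene, and UGT85A2 (0.31 ± 0.07), and their calls ended in 8, 5 and 11 of 15 other settings. The family count depended on the setting. With all 12 arrays in the fit 1 gene was higher, and without brca2a triple replicate 2 there were 7 higher and 3 lower, beside 3.31% and 4.22% of all named loci. The 3 were UGT87A2 (-0.34), UGT76B1 (-0.38), whose product glucosylates SA and isoleucic acid, and UGT76E12 (-0.43), and each had its highest brca2a triple value on replicate 2.

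Genes of tetrapyrrole and chlorophyll metabolism, a list put together after values were seen, differed by little. Of 9 measured members 5 were higher and 1 lower, beside 3.39% and 4.08% of all named loci, with a median of 0.271. With all 12 arrays in the fit 1 was higher and 1 lower. PORB, a protochlorophyllide oxidoreductase gene, had 600, 598 and 553 in the brca2a triple and 430, 467 and 416 in the double (0.40 ± 0.06, adjusted p = 0.0058, and 0.55 with all 12 arrays). CHLM, a methyltransferase gene of chlorophyll synthesis, had 3461, 3398 and 3425 against 2964, 3090 and 3111 (0.17 ± 0.04, adjusted p = 0.048). The calls of CHLM, HEME2 (0.27), CHLI2 (0.30) and NOL (0.31) ended in 12, 10, 9 and 5 of 15 other settings. HEMA2, which encodes a glutamyl-tRNA reductase of the first step, was lower, with 84.9, 78.0 and 80.1 in the brca2a triple and 104, 112 and 106 in the double (-0.35 ± 0.05, adjusted p = 0.0046). Without brca2a triple replicate 2 there were 2 higher members and 1 lower. None of the 8 measured nuclear photosystem genes passed with all 6 arrays, and without that replicate LHCB4.3 was lower (-0.41, adjusted p = 0.008). Of 69 measured plastid-genome loci 1, ycf4, was lower (-0.38 ± 0.08, adjusted p = 0.023), beside 4.08% of all named loci, with a median of -0.141. Without brca2a triple replicate 2, 13 of the 69 were lower and none higher, beside 4.22% of all named loci lower in that setting.

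Of the jasmonate list 3 genes were measured, of which 1 was higher and none lower, beside 3.39% and 4.08% of all named loci. JMT, the gene for jasmonate methyltransferase, had 53.0, 45.2 and 55.1 in the brca2a triple and 20.5, 19.6 and 22 in the double (0.87 ± 0.07, adjusted p = 0.00021, and 0.14 with all 12 arrays). A further jasmonate list, put together after values were seen, had 3 measured genes. Of these OPCL1 and ORA47 were lower and JMT higher, beside the same shares of all named loci. OPCL1, which encodes a CoA ligase of jasmonate synthesis, had 186, 151 and 172 against 392, 298 and 336 (-0.94 ± 0.11, adjusted p = 0.0019). The defensin genes PDF1.2b and PDF1.2, markers of the jasmonate and ethylene response, had differences of 0.05 and 0.07 and did not pass (adjusted p = 0.67 and 0.48). Their 95% intervals were -0.07 to 0.18 and -0.04 to 0.17.

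Replicate 2 of the brca2a triple stood apart for cold-regulated genes. COR15B, a gene for a chloroplast protein that protects membranes from freezing, had 122, 154 and 113 in the brca2a triple and 61.1, 61.6 and 62.2 in the double (0.90 ± 0.10, adjusted p = 0.0015). COR15A, its close relative, had 519, 1856 and 512 against 250, 269 and 291. All triple arrays were above all double arrays, but replicate 2 lay so far above the other 2 that the test did not pass (1.5 ± 0.46, adjusted p = 0.097). Without that array the difference was 0.90 (adjusted p = 0.00033). The dehydrin gene COR47 had 1063, 1976 and 1121 in the brca2a triple and 1560, 1668 and 1540 in the double, with overlap (-0.25 ± 0.22, adjusted p = 0.61), and without replicate 2 it was lower by a log2 difference of -0.53 (adjusted p = 0.0017). COR15A and COR15B may share signal, since such close copies can bind each other's probes, which was not tested.

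Few DNA repair genes had a one-gene probe set in the platform table. Of the recombination, repair and cell cycle list 2 genes were measured, and neither passed. ATLIG4, the gene for the ligase of end joining, had a difference of 0.01 ± 0.07 (95% interval -0.16 to 0.18, adjusted p = 0.96). The 3 measured reference genes, PEX4, AT4G34270 and AT2G28390, had differences of -0.05, 0.00 and 0.11. The clock gene GI and the senescence gene SAG29, the only measured members of their lists, had differences of -0.15 (adjusted p = 0.24) and 0.43 (adjusted p = 0.65; -0.09 without brca2a triple replicate 2). NAC014 had 0.07 (adjusted p = 0.79; 0.20 and 0.043 without that replicate), and the small heat shock protein gene ATHSP22.0 had 0.00 (adjusted p = 1). HIS1-3, a gene for a stress-induced linker histone, had 80.1, 63.1 and 70.2 in the brca2a triple and 95, 114 and 108 in the double (-0.48 ± 0.09, adjusted p = 0.015, lost in 4 of 15 settings with values up to 0.063).

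**Figure D4:**
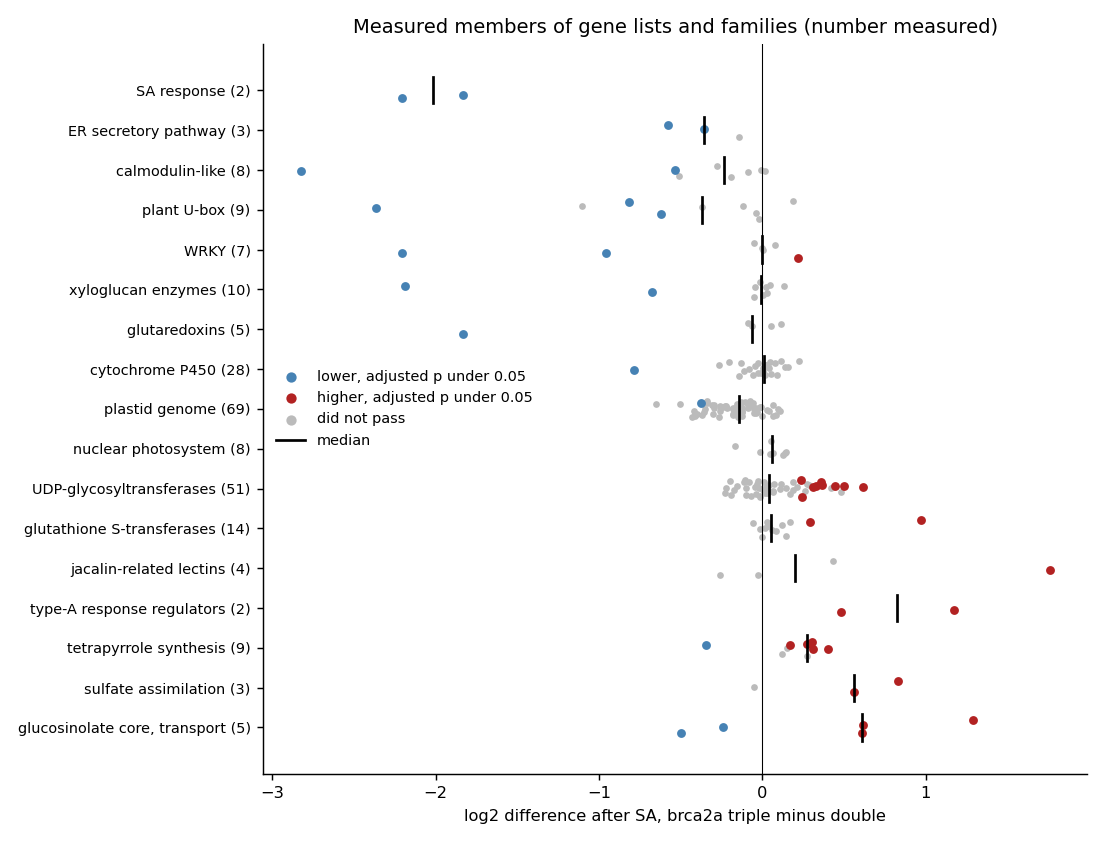
Differences between brca2a triple and double after SA (log2) of the measured members of 17 lists and families, with the number measured in brackets. Blue points are lower and red points higher at an adjusted p under 0.05, grey points did not pass, and black bars are medians. The blue points of the SA response and of the calmodulin-like, U-box, WRKY and xyloglucan families reach below -1.8, while the red points of the glycosyltransferases and tetrapyrrole genes lie below 0.7.

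Among the strongest signals, 6 genes past the threshold had the highest mean intensities. AT3G22240 had 5110, 4889 and 5123 in the brca2a triple and 8849, 9392 and 9275 in the double (-0.86 ± 0.04, adjusted p = 3.5e-05). AT5G03350 had 2162, 1939 and 2151 against 4597, 4813 and 4282 (-1.13 ± 0.06, adjusted p = 5.6e-05). AT1G66100 was higher, with 3750, 3660 and 3518 in the brca2a triple and 2314, 2257 and 2423 in the double (0.64 ± 0.05, adjusted p = 2e-04). The differences of AT3G29240, DI19 and CHLM were -0.37, -0.31 and 0.17, and the call of DI19 ended in 9 of 15 settings (adjusted p up to 0.14). Differences past the threshold were thus measured at high as well as at low intensity.

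The water arrays show whether these genotype differences were present without SA. In water the brca2a triple differed from the double at 17 probe sets, or 0.0747%, in the fit of all 12 arrays, where 970 differed after SA. At an unadjusted p under 0.05 the water count was 2622. Without double water replicate 2 it was 107, or 0.47%, after adjustment, an alternative chosen after seeing the data. The 12 loci lowest after SA had a median difference of 0.0398 in water, against -2.41 after SA, and none of them passed in water. For the 12 highest loci the median was 0.261 in water, against 1.32 after SA. Their differences in water ran from -0.629 to 1.08, so some were as large as those after SA, though none passed. STZ had 103, 63.9 and 115 in the brca2a triple and 138, 102 and 132 in the double in water. CML38 had 44.3, 19.7 and 47.1 in the brca2a triple and 22.3, 19.7 and 24.2 in the double, and PUB23 90.6, 78.6 and 96.1 against 93.0, 61.1 and 107. The genotypes overlapped in water for CML38 and PUB23. For STZ they overlapped through double replicate 2 alone, and the other double arrays in water, at 138 and 132, lay above all triple arrays. The difference after SA minus that in water (the interaction) was tested in the fit of 12 arrays and passed for 442 probe sets, or 1.94%, with 351 more negative and 91 more positive after SA. Of the 442, 404 also differed after SA in the same direction, beside 8.97% of all probe sets in either direction. The interaction contains the difference after SA from the same arrays, so this agreement was partly built in. Without double water replicate 2 the interaction passed for 1065 probe sets, which held each of the 442 with its sign kept.

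The 89 loci at least 2-fold lower after SA were chosen on the same SA arrays, so their counts here are a description. The interaction passed for 63 of them, beside 1.57% of all named loci. In 82 of the 89 the double arrays after SA were all above the double arrays in water, which held for 9.58% of all named loci. In 20 the brca2a triple arrays after SA were all above those in water, beside 11.6% of all named loci. In 29 of the 89 the brca2a triple arrays after SA were all below the brca2a triple arrays in water, beside 16.7%, and in 40 they overlapped. In water the brca2a triple arrays were all below the double arrays for 7 of the 89, beside 4.07% of all named loci. Without double water replicate 2 this held for 26 of the 89, beside 8.92%. STZ was one of the 29, with 51.1 to 63.5 after SA and 63.9 to 115 in water. WRKY22 and XTH18 had means of 53.7 and 74.4 after SA and 45.6 and 65.6 in water in the brca2a triple. Of the 12 loci at least 2-fold higher after SA, 8 had all double arrays after SA below those in water, beside 10.8% of all named loci, and 8 had all brca2a triple arrays after SA above those in water, beside the 11.6% given above. JAL23 showed both, with 149, 178 and 141 after SA and 77.7, 63.6 and 83.2 in water in the brca2a triple, and 37.6, 31.7 and 34.5 after SA and 69.6, 64.4 and 61.2 in water in the double.

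COR15B also differed between the genotypes in water. It had 195, 172 and 154 in the brca2a triple and 63.1, 78.1 and 66.2 in the double in water, a difference of 1.15 ± 0.11 (adjusted p = 0.0082), and its interaction did not pass (-0.26, adjusted p = 0.56). PPDK had -1.15 after SA and -0.71 in water (adjusted p = 0.23 in water), with an interaction of -0.44 (adjusted p = 0.53). For UGT74B1 and AT2G31790 the differences were 0.62 and 0.61 after SA and 0.73 and 0.68 in water, and the interactions were -0.12 and -0.07 (adjusted p = 0.94 and 0.96). Without double water replicate 2 their differences in water were 0.34 and 0.32. These p-values do not show that the differences were equal. For UGT74B1 double water replicate 2 had 245 intensity units, where its companions had 599 and 551. ARR15, with 1.17 after SA, had -0.63 in water, where its intensities were 72.6, 64.8 and 81.6 in the brca2a triple and 108, 154 and 106 in the double. Its water difference did not pass, and the highest of its double values in water was that of replicate 2.

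**Figure D5:**
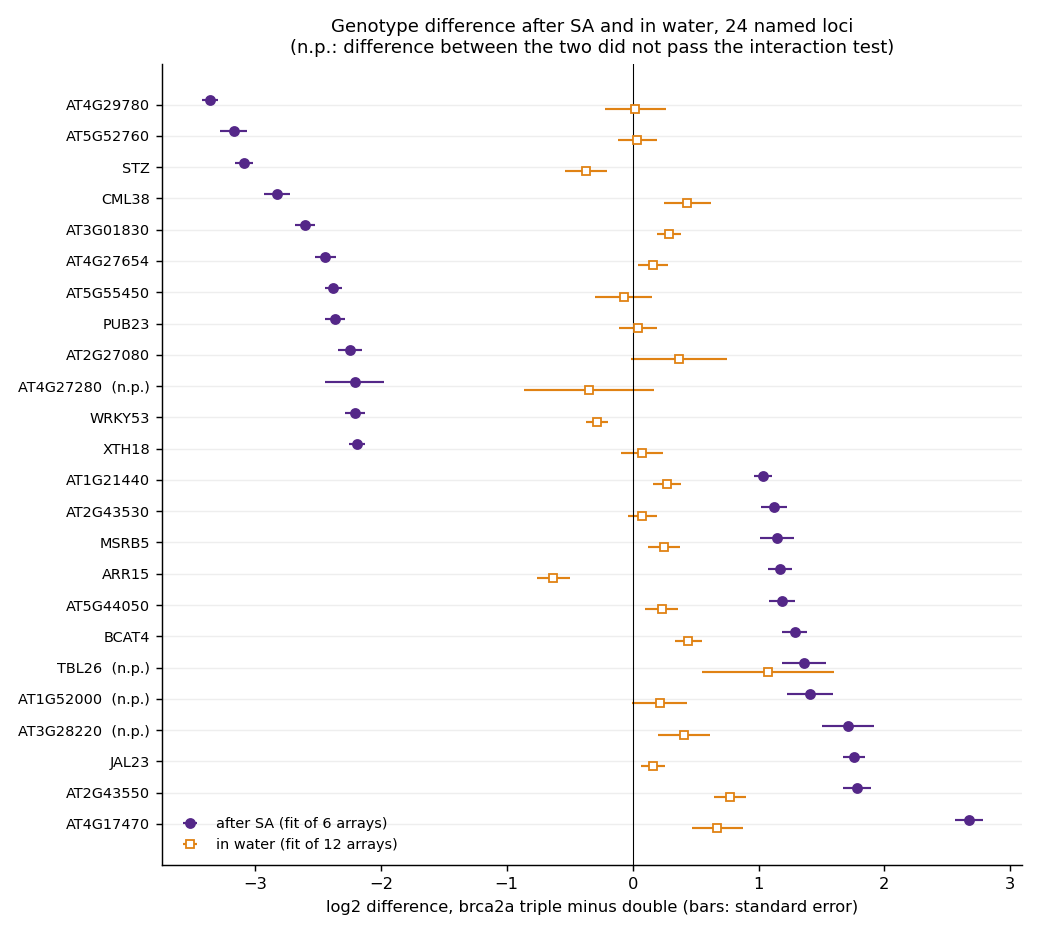
Genotype difference (log2, brca2a triple minus double, bars are standard errors) after SA from the fit of 6 arrays (filled circles) and in water from the fit of 12 arrays (open squares) for the 24 named loci with the lowest and highest differences. The 12 lowest lie at -2.19 or below after SA and between -0.37 and 0.44 in water. The 12 highest lie at 1.04 or above after SA and between -0.63 and 1.08 in water, and ARR15 lies on opposite sides of 0. None of the 24 passed in water. The 4 loci marked n.p. did not pass the interaction test.

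Probe sets that the platform table used here does not list also differed. The lowest was 261892_at, with 49.7, 63.9 and 62.1 in the brca2a triple and 953, 956 and 971 in the double (-3.72 ± 0.08). The probe set 266385_at had 42.1, 31.8 and 35.9 against 427, 511 and 462 (-3.20 ± 0.09). In the other direction 254232_at had 1441, 1957 and 1462 in the brca2a triple and 323, 340 and 329 in the double (2.22 ± 0.11), and 245928_s_at had 1115, 1025 and 1005 against 256, 215 and 234 (2.09 ± 0.07). All 4 had adjusted p-values of 3.5e-05 or lower, and the genotypes did not overlap in any of them, as in every probe set past the threshold. Of the 8730 unlisted probe sets 1001 differed, 503 lower and 498 higher, beside 2040 of all 22746 probe sets (8.97%).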

How the data were processed

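Total RNA was hybridised to ATH1 arrays, 1 sample per array. The authors deposited linear probe set intensities for the 12 arrays of the brca2a triple and the double, which were made with PLIER per the submitters' processing notes; no version is given in the sources used here. The deposited series value table holds centred log2 values of the same arrays and served as an alternative. Arrays have no read depth, so their number limits the precision.

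From these values log2(intensity + 16) was computed, 64 control probe sets were left out, and limma 3.58.1 (lmFit, eBayes, R 4.3.3) was fitted to the 6 SA arrays alone; the interaction and the water difference used all 12 arrays. Tests were two-sided, with Benjamini-Hochberg adjustment over 22746 probe sets and a threshold of 0.05. The fit was tested on simulated data. A 3 against 3 exact permutation test cannot go below 0.1, so none was used. Loci and symbols come from the platform table and RefSeq (TAIR10.1), with the brightest probe set per locus. The text names the 12 lowest and 12 highest loci with separate groups, the 6 brightest past the threshold, members of 18 lists and 24 symbol families, neighbours that both passed, and, added later, loci with a symbol and a difference of at least 0.8. Members and lists were chosen with earlier results of these data known. Of 204 list entries 26 were measured, that is, named by a one-gene probe set in the platform table. Families meant to be found by product description were matched on synonyms, since the table has no descriptions. Alternatives were the pseudocount, a filter on dim probe sets, scaling, normalization, the series table, the empirical Bayes settings, all 12 arrays, the replicate block and each array left out. Promoter motifs were not analysed here, and 1 measured list member is not reported here.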

Additional observations from a re-analysis of the deposited data

Results flagged for a closer look

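The genotype difference after SA minus the genotype difference in water passed the test of the interaction (limma on 12 arrays, adjusted p) for 20 of the 24 loci with the lowest and highest differences after SA. These loci were chosen for their difference after SA, so a gap to the water value was favoured by the choice. Among the lowest loci it was -3.38 for AT4G29780, -3.20 for AT5G52760, -2.71 for STZ and -3.26 for CML38. It was -2.89 for AT3G01830, -2.60 for AT4G27654, -2.30 for AT5G55450 and -2.40 for PUB23. It was -1.92 for WRKY53, -2.26 for XTH18 and -2.61 for AT2G27080, and the last of these did not pass in 10 of 17 other settings, with adjusted p up to 0.1.

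Among the highest loci the interaction was 2.0 for AT4G17470, 1.80 for ARR15, 1.60 for JAL23 and 1.05 for AT2G43530. It was 1.01 for AT2G43550, 0.96 for AT5G44050, 0.90 for MSRB5, 0.84 for BCAT4 and 0.76 for AT1G21440. These last 5 did not pass in 2, 7, 8, 3 and 12 of the 17 other settings. AT4G27280, with -1.86, did not pass (adjusted p = 0.32).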

How the results depend on the processing

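The number of probe sets that differed after SA was 2040, and with all 12 arrays in the fit it was 970. Leaving out 1 array at a time gave 1336 (without brca2a triple replicate 1) to 2082 (without brca2a triple replicate 2), and fewer arrays leave fewer degrees of freedom. The interaction passed for 442 probe sets, and leaving out 1 array at a time gave 329 (without double replicate 3 after SA) to 1065 (without double water replicate 2). Other pseudocounts, scalings, filters, the series value table and other empirical Bayes settings gave 1787 to 2192 after SA. The share that was higher was 37.3% without brca2a triple replicate 1. With the replicate number as a block the counts were 1701 and 438. Same-numbered arrays deviated together at r of 0.17, 0.0139 and 0.00521 over 12240 probe sets, so the numbers were not taken as pairs. Of 24 loci with the lowest and highest differences 23 passed in every one of 15 settings, and TBL26 did not with all 12 arrays. Over all named genes after SA, 1711 values kept their side of the threshold, 128 no longer passed and 18 newly passed. No value that passed with all 6 arrays changed sign, while values that did not pass could turn. The log2 difference of AT3G11340 (UGT76B1) was 0.01 with all arrays and lay between -0.382 (without brca2a triple replicate 2, adjusted p = 0.024) and 0.242 (without brca2a triple replicate 3). The log2 difference of AT3G46660 (UGT76E12) was 0.43 with all arrays and lay between -0.429 (without brca2a triple replicate 2, adjusted p = 0.002) and 0.864 (without brca2a triple replicate 1). In water the count was 17, and 107 without double water replicate 2. The interaction of AT4G01070 (GT72B1) was -0.20 with all arrays, and without 1 array at a time it lay between -0.506 (without double water replicate 3) and 0.37 (without double water replicate 2); the cause was not tested. With 3 arrays a group, small differences may be missed. On simulated data with normal noise, 80% of log2 changes of 0.5 were recovered. Only 200 of 22746 probe sets were changed there, where 2040 passed in the real data, so this share need not hold for the real comparison.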
